A study of Mus musculus with 3 samples.

Results

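The neuropeptide genes of the striatum considered here were Penk, Pdyn, Tac1, Cartpt, Npy, Sst, Cck and Pnoc. A binding site of the thyroid hormone receptor TRα1 (TRBS) was attached to one of these genes when its summit, the base of highest coverage, lay inside the gene body or within 30 kb of the 5′ end of the gene, here called the TSS. By this rule 4 of the 23988 TRBS of the adult striatum were found, 1 each at Penk, Tac1, Cartpt and Cck, and none was attached to Pdyn, Npy, Sst or Pnoc. All of the 8 genes were present in the annotation, GENCODE vM21 on GRCm38.

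The chromatin came from the striatum of adult male mice of the C57BL/6J background that carried a TRα1 with a GS tag, produced in the GABAergic neurons of this region. The animals were euthyroid and received no treatment. The labels give their age as 8 without a unit, and the paper lists it as 8 weeks. The tissue was crosslinked with disuccinimidyl glutarate and formaldehyde, and 2 ChIP libraries and 1 input library, the control, shared this genotype. The processed data were 1 list of peaks without values for single libraries, so neither the spread between replicates nor the depth of each library was available for the values below, and no difference between genes was tested. A list of peaks holds no expression values either, so the labelled cell type was not checked against its markers. Projection neurons and interneurons of the striatum are both GABAergic, and their contributions to a TRBS cannot be told apart in these data.

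Neuropeptides are short signalling peptides that are cut from larger precursors and released from dense core vesicles beside the fast transmitter. In the striatum they divide the neurons into classes. Penk, the precursor of the enkephalins, is a marker of the projection neurons of the indirect pathway. Pdyn, the precursor of the dynorphins, and Tac1, the precursor of substance P and neurokinin A, mark those of the direct pathway. Npy (neuropeptide Y) and Sst (somatostatin) are found together in a class of interneurons. Cartpt encodes the precursor of the CART peptides, Cck that of cholecystokinin and Pnoc that of nociceptin. TRα1 is a nuclear receptor that binds DNA mostly as a heterodimer with RXR. Its preferred element is DR4, in which AGGTCA, the half-site, stands in tandem and 4 bp separate the copies.

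The sequences around the 4 summits are shown because they are the centres of all the regions at these genes that the list reports as occupied. Each runs over 201 bases of GRCm38, from 100 bp on one side of the summit to 100 bp on the other, on the strand of the gene. Capitals mark matches without mismatch to the short motifs described below.
Penk, chr4:4138871-4139071, minus strand: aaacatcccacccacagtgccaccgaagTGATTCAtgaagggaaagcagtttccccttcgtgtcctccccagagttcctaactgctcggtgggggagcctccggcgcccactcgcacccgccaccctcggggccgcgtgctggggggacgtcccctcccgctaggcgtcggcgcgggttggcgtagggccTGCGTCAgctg
Tac1, chr6:7560814-7561014, plus strand: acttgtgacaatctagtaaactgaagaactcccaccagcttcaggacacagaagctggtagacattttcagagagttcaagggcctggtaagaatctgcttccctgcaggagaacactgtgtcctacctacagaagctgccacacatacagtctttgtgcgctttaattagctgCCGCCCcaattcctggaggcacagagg
Cartpt, chr13:99919942-99920142, minus strand: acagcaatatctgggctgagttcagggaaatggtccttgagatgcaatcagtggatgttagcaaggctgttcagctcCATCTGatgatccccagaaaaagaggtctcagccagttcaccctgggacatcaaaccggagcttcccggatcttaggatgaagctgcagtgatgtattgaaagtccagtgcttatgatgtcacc
Cck, chr9:121505412-121505612, minus strand: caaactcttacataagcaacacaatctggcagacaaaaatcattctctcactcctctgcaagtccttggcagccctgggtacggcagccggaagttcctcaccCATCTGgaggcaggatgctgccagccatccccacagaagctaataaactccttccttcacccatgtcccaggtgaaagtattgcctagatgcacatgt

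The TRBS of Penk was the only one of the 4 at a promoter. Penk lies on chromosome 4, from 4133531 to 4138819 on the minus strand, and its TRBS extended from 4138782 to 4139153, over 372 bp. The summit at 4138971 was 152 bp upstream of the TSS, so the called region included the TSS itself. It also lay inside the annotated non-coding transcript A830012C17Rik. Penk was thus 1 of 8 genes with a TRBS less than 1 kb from the TSS, whereas 23.2% of the 21938 protein-coding genes had one.

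The pileup, the number of ChIP fragments that covered the summit, was 28 at Penk. Its 95% exact Poisson interval ran from 18.6 to 40.5 and, like the other intervals given here, covers counting error only. The fold enrichment, in which the peak caller divides pileup plus 1 by local background plus 1, was 6.97. By pileup the TRBS of Penk stood at or above 68.3% of all TRBS, and by fold enrichment at or above 44.7%. Among the 4894 TRBS within 1 kb of a TSS, the corresponding shares were 59.7% and 40.5%. The lower rank by fold enrichment went with the local background, which was 3.16 fragments at Penk, at or above that of 95.1% of all TRBS. Over the lowest background of the list, 1.69 fragments, the same pileup would give a ratio of 10.8. The 201 bases at this summit were rich in G and C, at 67.7%, against a median of 50.7% for all TRBS. The contribution of base composition to the local background was not tested.

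Tac1 was the only gene with a TRBS inside its body. The gene lies on chromosome 6, from 7554879 to 7565834 on the plus strand, and the TRBS, from 7560709 to 7561140, was intronic, 6035 bp downstream of the TSS. Its pileup was 15 (95% exact Poisson interval 8.40 to 24.7) and its fold enrichment 5.95, at or above 27.9% of all TRBS. Pdyn, the other peptide gene of the direct pathway, had none.

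The TRBS of Cck and Cartpt were upstream and outside any annotated gene. That of Cck, a gene on the minus strand of chromosome 9 from 121489824 to 121495694, extended from 121505388 to 121505662, with its summit 9818 bp upstream of the TSS. Its pileup was 17 (95% exact Poisson interval 9.90 to 27.2), for a fold enrichment of 6.69, at or above 42.6% of all TRBS. Cartpt lies on the minus strand of chromosome 13, from 99898489 to 99901091. Its TRBS, from 99919865 to 99920097, was the most distant of the 4, 18951 bp upstream of the TSS. At 14 fragments (95% exact Poisson interval 7.65 to 23.5), its pileup was at the minimum, which 10.7% of all TRBS share. Its fold enrichment of 5.58 was at or above 19.2% of all TRBS, and its length of 233 bp was close to the minimum of 231 bp.

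All 4 TRBS thus had a fold enrichment below the median of the list, 7.40, and their own median was 6.32. At Tac1, Cartpt and Cck the local background was 1.69 fragments, the lowest of the list, as for 42.6% of all TRBS (within 0.01). There the fold enrichment and the score follow from the pileup, so these are not separate measures. For 40.0% of the protein-coding genes the strongest TRBS was above the median of the list, whereas this held for 0 of the 8 genes. Among genes with a TRBS, the share was 69.4% of the protein-coding genes and 0 of 4 here. Both shares take the strongest TRBS of a gene and so depend on how many TRBS it has. Of the 12648 protein-coding genes with a TRBS, 7112 had at least 2, whereas each of the 4 genes here had 1. A count of 0 of 4 TRBS allows a share of up to 60.2% (exact binomial interval). Only that of Penk had a pileup above the median of 21. The 4 Poisson intervals of the pileup overlapped one another, which does not decide whether the counts differ, and the order Penk, Cck, Tac1, Cartpt was not tested.

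The score, 10 times −log10 of the q-value of the peak caller, was 147 at Penk, 95 at Cck, 76 at Tac1 and 66 at Cartpt, the minimum of the list being 60. With a score of at least 100, only the TRBS of Penk remained, and 45.3% of the protein-coding genes still had one. At a score of at least 200 none of the 8 genes had a TRBS, against 30.6% of the protein-coding genes.

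**Figure D1:**
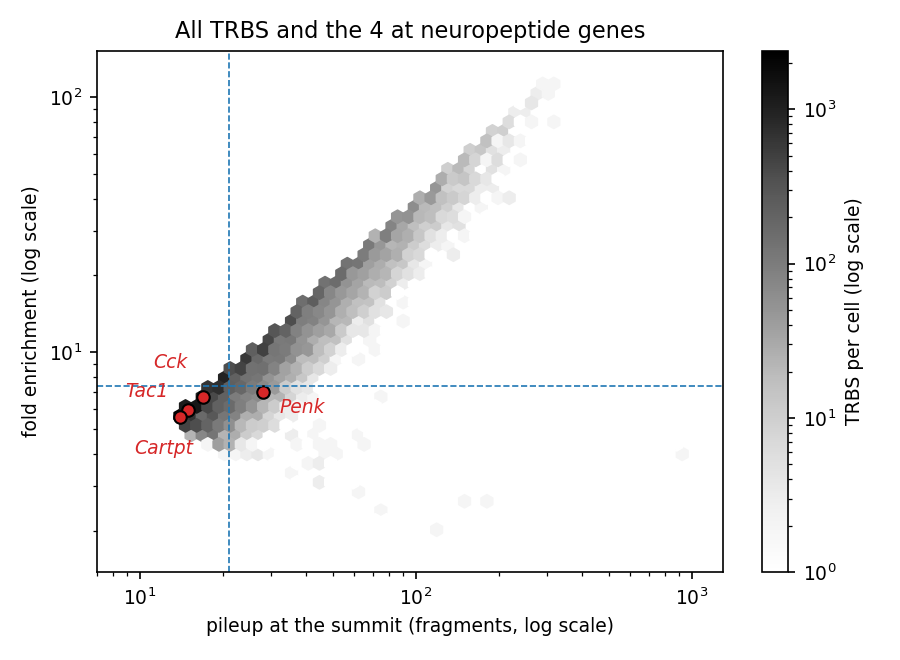
Pileup at the summit (fragments, horizontal) against fold enrichment (vertical), both on log scales. Grey cells count all 23988 TRBS, red points are the TRBS of Penk, Tac1, Cartpt and Cck, and dashed lines mark the medians of 21 fragments and 7.40. All 4 points lie below the horizontal line, and only Penk, at 28 fragments, lies to the right of the vertical line.

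The share of the 8 genes with a TRBS was near that of genes in general, but 8 genes give it a wide interval. It was 4 of 8, or 50.0% (exact binomial 95% interval 15.7 to 84.3%), against 57.7% of all protein-coding genes (12648 of 21938). Since the neuropeptide genes are short, with a median length of 6.33 kb and none over 24.8 kb, the protein-coding genes with a body of at most 30 kb are a closer background, and 51.4% of them had a TRBS. None of the 8 genes had more than 1 TRBS, whereas 32.4% of the protein-coding genes had at least 2. No other protein-coding gene had its TSS within 30 kb of any of the 8 TSSs, and none of the 4 TRBS was attached to another protein-coding gene by the same rule.

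The genes without a TRBS differed in the distance to the nearest one. Pnoc, on the minus strand of chromosome 14 from 65400673 to 65425472, was just beyond the limit of the rule. The nearest summit was 31.8 kb downstream of its TSS, past the end of the gene, with 22 fragments at the summit and an 8.55-fold enrichment, above that of any of the 4 attached TRBS. With a distance of 50 kb in place of 30 kb, 5 of the 8 genes had a TRBS, as did 66.8% of the protein-coding genes.

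Sst, on chromosome 16 from 23889573 to 23890958, had its nearest summit 77.9 kb upstream. This TRBS had a fold enrichment of 5.54 and was closer to the TSS of Gm37419, at 19651 bp. Pdyn, on chromosome 2 from 129686565 to 129699844, had its nearest summit 138 kb downstream, with a fold enrichment of 16.7, and F830045P16Rik, 25289 bp from it, had the closest TSS. For Npy, on chromosome 6 from 49822710 to 49829507, it was 139 kb downstream, with a fold enrichment of 21.2, and no other protein-coding TSS was closer to that summit.

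These 3 genes lay in wide intervals without a TRBS. The interval between the flanking summits was 673 kb around Pdyn, 698 kb around Npy and 707 kb around Sst, against 179 kb around Pnoc. The numbers of the peaks rose along each chromosome, so that gaps in the numbering show where calls had been removed by the score threshold of 60. In these intervals 5 numbers were missing around Pdyn, 5 around Npy, 3 around Sst and 2 around Pnoc. Over the whole list 49.2% of the calls had been removed, so missing numbers are common and not particular to these genes. The intervals therefore held calls of the peak caller that had not reached the threshold, at positions that the list does not give. The absence of a TRBS from these genes is an absence at this threshold and depth.

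Over the 8 genes the median distance from the TSS to the nearest summit was 25.4 kb, and over all protein-coding genes it was 25.2 kb. The 8 genes were spread over this distribution. The distance at Penk was at or above that of 8.96% of the protein-coding genes, and those at Tac1, Cck and Cartpt at or above 30.9%, 35.6% and 44.7%. At the other end, Sst stood at 73.3%, Pdyn at 83.1% and Npy at 83.2%, with Pnoc at 54.6%.

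**Figure D2:**
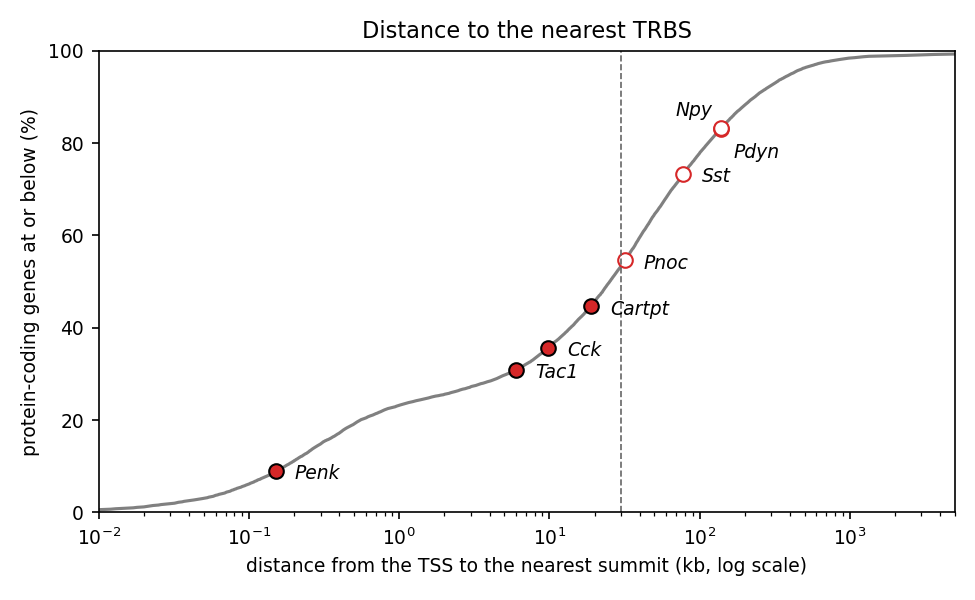
Distance from the TSS to the nearest summit (kb, log scale) against the share of protein-coding genes with a distance at or below it (%). The grey line is the distribution over 21938 genes, filled points are genes with a TRBS by the rule, open points are genes without one, and the dashed line marks 30 kb. The 8 genes run from 8.96% at Penk to 83.2% at Npy, where Pdyn nearly coincides.

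**Figure D3:**
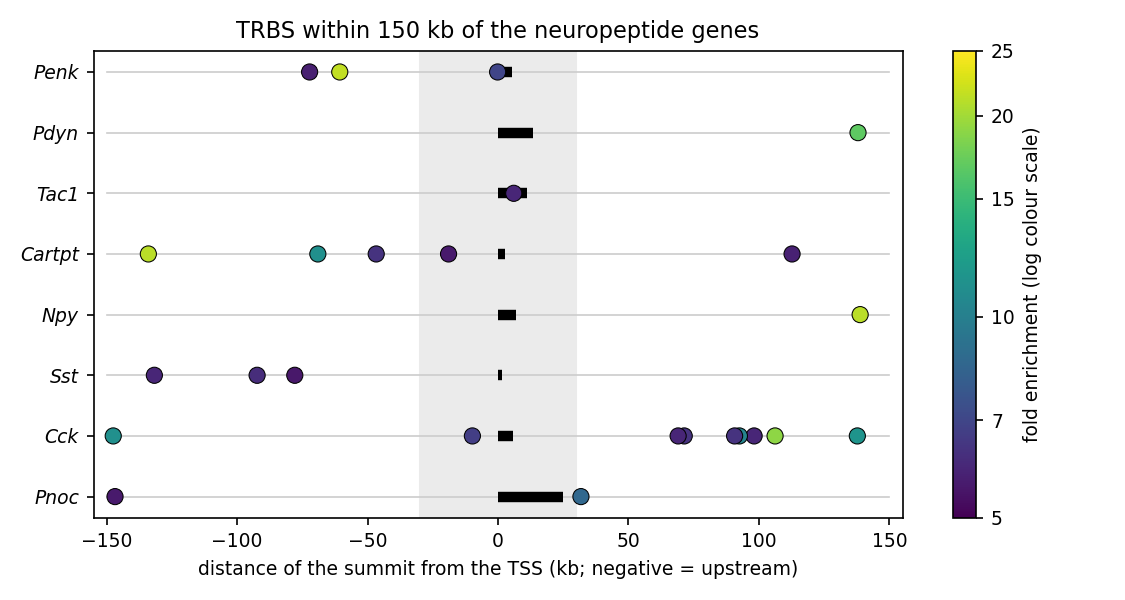
TRBS within 150 kb of each TSS, at their distance in kb, with negative values upstream. Black bars are gene bodies drawn from the TSS, the shaded band marks 30 kb on either side, and the colour gives the fold enrichment on a log scale. The band holds 1 TRBS each at Penk, Tac1, Cartpt and Cck, and the strongest TRBS of the map lie outside it.

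DR4 was searched on both strands, and up to 2 of its 12 half-site bases were allowed to differ. None of the 4 TRBS held a match, and a count of 0 of 4 allows a share of up to 60.2% (exact binomial interval). Of all TRBS, 17.3% held one in the called region and 13.1% within 100 bp of the summit, and 17.8% of the protein-coding genes had a TRBS with a match. With 4 TRBS, a share below that of the list was not detectable. The closest sequence at Cartpt had 3 mismatches, agttcaccctgggaca at chr13:99920016-99920031 on the minus strand, 18 bp from the summit, and 38.2% of all TRBS had as good a match at the summit. At Penk, Tac1 and Cck the closest DR4 had 4 mismatches. The same window at Cartpt matched a direct repeat with a spacer of 5 bp at 2 mismatches, as did 3.23% of all TRBS. It was the only match among 11 arrangements of half-sites searched at the 4 summits, DR4 included, and each of the others except DR4 occurred at 1.24 to 3.19% of all TRBS. The half-site AGGTCA itself occurred within 100 bp of 0 of the 4 summits and of 17.8% of all summits.

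DR4 matches were present near all of the neuropeptide genes. Within 30 kb of the 8 TSSs there were 60 matches to DR4, with 5 at Pnoc, 6 each at Penk and Tac1, 7 at Pdyn, 8 each at Cartpt, Npy and Sst, and 12 at Cck. The median over all protein-coding genes was 7. None was without mismatch, 4 had 1 mismatch and 56 had 2, and 0 of the 60 touched a TRBS. Of the 99264 matches within 30 kb of any protein-coding TSS, 2.43% touched one, so that a count of 0 among 60 is near this background. The 4 best are given here with the half-sites in capitals and the spacer in lower case.
Penk, chr4:4139176-4139191, minus strand: AGTTCAgcagAGGTCA
Pdyn, chr2:129673989-129674004, plus strand: AGGTCAgagaAGGGCA
Cartpt, chr13:99914494-99914509, plus strand: AGGTCAagtcAAGTCA
Cck, chr9:121510022-121510037, minus strand: AGGCCAtagaAGGTCA

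The match at Penk was 365 bp upstream of the TSS and 213 bp from the summit, with its nearest base 23 bp beyond the end of the called region. Among the 4 genes with a TRBS, Penk had the shortest distance between the summit and a DR4 with 1 mismatch. At Cartpt the match was 13411 bp upstream of the TSS and 5540 bp from the summit, and at Cck it was 14336 bp upstream and 4518 bp from the summit. Pdyn, without a TRBS, had its match 25847 bp downstream of the TSS, past the end of the gene. Npy, Sst, Tac1 and Pnoc had matches with 2 mismatches only.

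**Figure D4:**
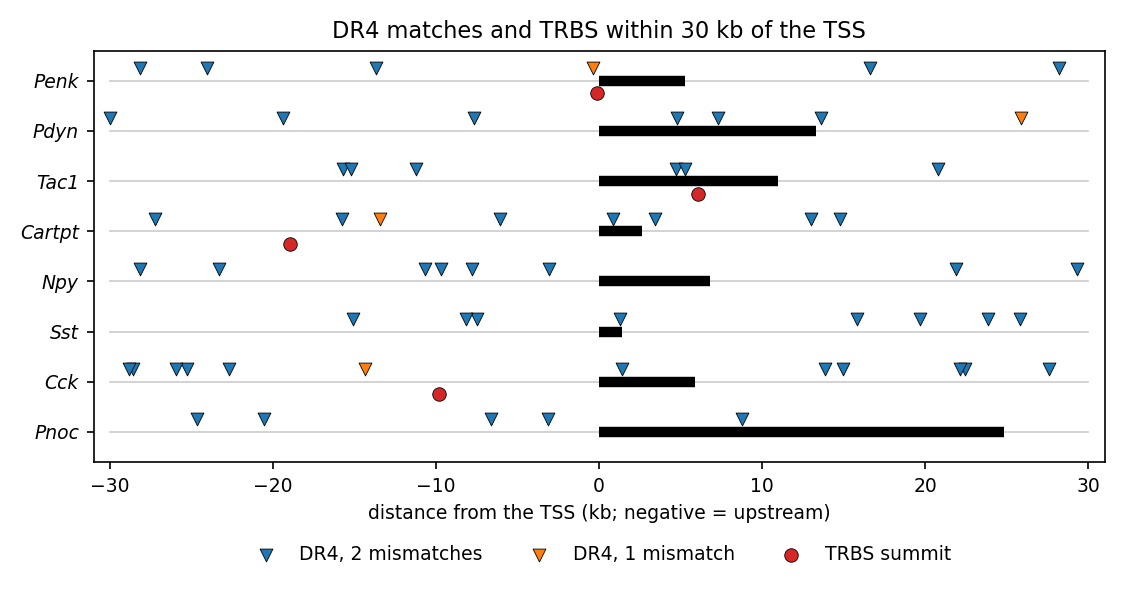
Positions of DR4 matches (triangles, coloured by the number of mismatches) and of TRBS summits (red points) within 30 kb of the TSS of each gene, in kb, with negative values upstream. Black bars are gene bodies. None of the 60 triangles falls in a TRBS, and the match with 1 mismatch at Penk is 213 bp from the summit.

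Other short motifs were searched on both strands without mismatch within 100 bp of the summits. The pattern TGANTCA, a relaxed form of the AP-1 motif with any base allowed at its centre, occurred at 11.5% of all TRBS. It was found at Penk as TGATTCA, with T at the centre, at chr4:4139037-4139043. The same window held TGCGTCA, a variant of the cAMP response element known from the enkephalin promoter, at chr4:4138875-4138881, 59 bp upstream of the TSS. This motif was added to the search after the other results were known. It occurred at 0.992% of all summits. The E-box CAGATG, a motif of basic helix-loop-helix factors, was found at Cartpt and Cck, in both as CATCTG on the strand of the gene, and at 15.1% of all TRBS. The window of Tac1 held 1 match to the SP1 motif GGGCGG, found at 18.2% of all TRBS. The cAMP response element TGACGTCA occurred at 0 of the 4 summits and at 0.542% of all TRBS. These matches are descriptions of the sequence only.

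The promoter table of RefSeq (GRCm38, 250 bases before to 50 after the start) held 6 of the 8 genes, without Penk and Pnoc. The cAMP response element was found in the promoters of Cartpt and Sst, and in 1.79% of the 32851 promoters. TGCGTCA was found in those of Tac1 and Cck, and in 2.12% of all. None of the 6 promoters held the half-site AGGTCA, which occurred in 16.3% of all, or the pattern TGANTCA, which occurred in 7.81%. None of these 6 promoters lay under a TRBS.

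Other neuropeptide genes, and genes for the receptors and the processing of peptides, were examined with the same rule. Of 24 other neuropeptide genes, mostly of the hypothalamus and the pituitary, 10 (41.7%) had a TRBS. The share was 57.7% for all protein-coding genes and 51.4% for those with a body of at most 30 kb. The 31 TRBS of these neuropeptide genes had a median fold enrichment of 6.66. The 3 strongest were closer to the TSS of other genes than to that of the peptide gene. That of Agrp, the agouti-related peptide, had a fold enrichment of 27.4 and was closest to the TSS of Ctcf, that of Hcrt (hypocretin, 20.7) to Kcnh4 and that of Npb (neuropeptide B, 17.9) to Mafg. Agrp spans 70.7 kb in the annotation, against a median of 2.72 kb for this list. Its TRBS therefore depend on that annotated extent, and 3 of the 6 lay within 30 kb of its annotated TSS. The 14 without a TRBS included Vip, Crh, Trh, Avp and Oxt.

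A partial list of 15 receptor genes for the peptides of the 8 genes was used. It held only Tacr1 for the peptides of Tac1 and none for the CART peptides. Of the 15 genes, 10 (66.7%) had a TRBS, and 9 did when only the 30 kb around the TSS were counted. Their 14 TRBS had a median fold enrichment of 8.66. None held a DR4 match, against 17.3% of all TRBS, and with 14 TRBS this difference was not tested. Among the opioid receptors, Oprd1, the δ receptor for the enkephalins, had 3 TRBS, the strongest 10855 bp upstream of the TSS with a fold enrichment of 26.0. Oprk1, the κ receptor for the dynorphins, had 1 at its TSS with a fold enrichment of 9.17. Oprm1 (the μ receptor) and Oprl1 (the nociceptin receptor) had none. Tacr1, the receptor of substance P, had an intronic TRBS 35108 bp from the TSS with a fold enrichment of 23.1. Npy1r and Npy5r, which are neighbours, shared 1 TRBS with a fold enrichment of 19.3, and Npy2r had none. Cckbr had the highest fold enrichment among the receptor genes, 61.2, at a TRBS 25748 bp upstream that was closer to the TSS of Fam160a2, and Cckar had none. Of the somatostatin receptors, Sstr2, Sstr3, Sstr4 and Sstr5 had a TRBS, with a fold enrichment between 7.44 and 13.0 at the strongest of each, and Sstr1 had none. The strongest TRBS of Sstr3 and Sstr5 were closer to the TSSs of Rac2 and Tekt4. For 10 of the 15 receptor genes (66.7%) the strongest TRBS was above the median fold enrichment of all TRBS, against 40.0% of the protein-coding genes. Of the genes with a TRBS these were 10 of 10, against 69.4% of the protein-coding genes and 0 of 4 peptide genes. These shares take the strongest TRBS of a gene, so they depend on how many TRBS it has. Among the receptor genes, Npy1r and Npy5r count the same TRBS, and Sstr2 at 7.44 was just above the median of 7.40.

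Of 14 genes for the processing and secretion of peptides, 13 (92.9%) had a TRBS, against 57.7% of all protein-coding genes. With the TSS alone, 12 (85.7%) had one. Cadps2 was without one. These genes were longer, with a median of 43.0 kb, and 53.3% of the protein-coding genes had a TRBS when the gene body was not counted. Pcsk1 and Pcsk2, the convertases that cut the precursors, had a fold enrichment of 52.6 at an intronic TRBS and of 29.8 at the strongest of 10 TRBS. Furin, a convertase of the secretory pathway, had 20.8. The median over the 39 TRBS of these genes was 7.07. No test between the gene lists was made.

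**Figure D5:**
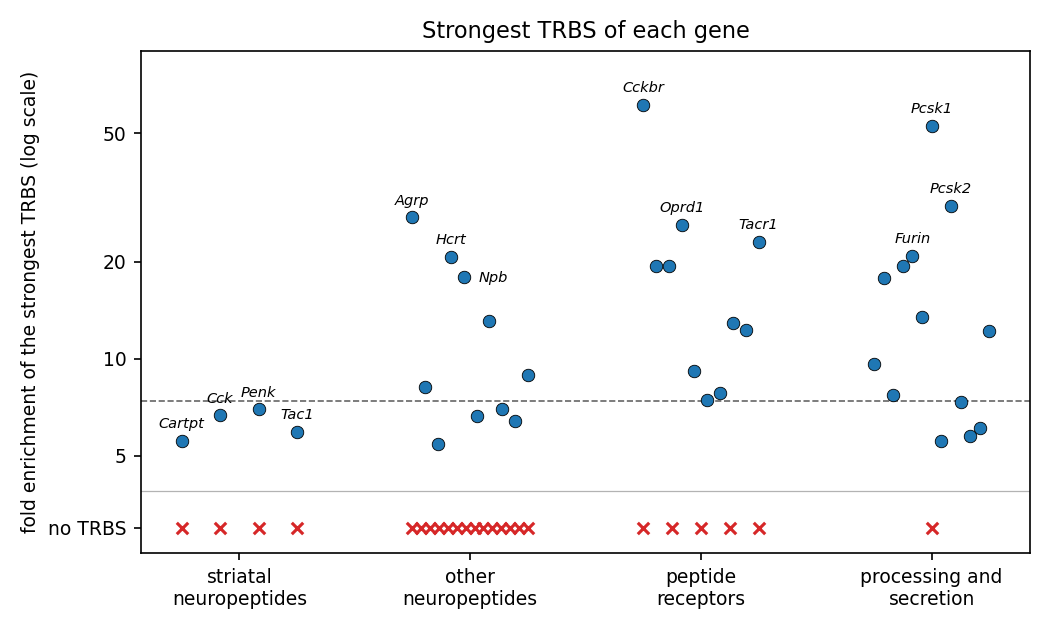
Fold enrichment of the strongest TRBS of each gene (log scale) in the 4 gene lists. Each point is a gene, crosses in the lowest row are genes without a TRBS, names mark the neuropeptide genes and the 3 highest genes of the other lists, and the dashed line is the median of all TRBS, 7.40. The 4 striatal neuropeptide genes with a TRBS lie between 5.58 and 6.97, while the highest receptor and processing genes reach 61.2 and 52.6.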

How the data were processed

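TRα1 ChIP-seq of adult mouse striatum comprised 2 ChIP libraries and 1 input library, grouped by the sample titles. The authors aligned the reads to mm10 (GRCm38) with Bowtie, called peaks with MACS on Galaxy and removed peaks with a score under 60. The submitters' processing notes name Bowtie2 2.3.2.2 and MACS2 2.1.1.20160309.0. Whether the ChIP libraries were pooled for the calling, and how duplicate reads were treated, is not given in the sources used here. The deposited list holds the pileup (coverage signal at the summit, in fragments), the fold enrichment (a ratio to the local background), the p- and q-values as −log10, and the score, all made by the authors with MACS. Calling on pooled reads, if done, would leave the spread between the libraries out of these values.

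From these the local background was taken as (pileup + 1) / fold enrichment − 1. Genes were those of GENCODE vM21, of which 21938 are protein-coding. Motif matches and sequences were read from GRCm38. Computations ran in Python 3.11.15 with scipy 1.17.1, pandas 2.3.3, matplotlib 3.10.9 and numpy 2.4.6, and the steps were tested on simulated data. The genes, lists and motifs were chosen with earlier results of these data known. All 8 genes are named, also those without a TRBS. Named too are the 3 genes of each other list with the highest fold enrichment, and the listed receptor genes. No test was run, since the single list allows none over samples. Alternatives were other distances, score thresholds, gene starts, peak positions, mismatch limits and gene sets.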

Additional observations from a re-analysis of the deposited data

How the results depend on the processing

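Of 70 values recomputed under the alternatives, 58 stayed within 1.5 times the value given and 12 did not. Some of the 58 could not move. A count of 0 TRBS with a DR4 stays 0 with at most 1 mismatch or with fewer TRBS. Most of the 12 that moved followed from the score threshold. With a score of at least 100, 1 neuropeptide gene and 1 TRBS were left. With at least 200, 0 of the 8 genes, 0 TRBS and 0 TRBS within 1 kb of a TSS were left, together with 4 other neuropeptide genes, 7 processing genes and 6712 protein-coding genes. Allowing 3 mismatches in DR4 gave 1 TRBS with a match in the called region and 1 at the summit. Counting all annotated genes gave 25091 genes with a TRBS, and only protein-coding genes of at most 30 kb gave 7340. With a score of at least 200 there was no median fold enrichment, since no TRBS was left. No paired analysis was possible because the list has no values per library, and for the same reason no library could be left out. The depth of the libraries was not analysed here, and the pileups of 14 to 28 fragments limit the precision of each value.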

Other observations

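Further TRBS lay beyond the limit of 30 kb. The distance of 150 kb was chosen after the data were examined. Between 30 and 150 kb from the 8 TSSs there were 21 TRBS, and 10 of them were above the median fold enrichment of all TRBS. Their own median was 6.32, equal to that of the 4 attached TRBS. At the lowest background each pileup gives 1 fold enrichment, so equal medians carry little weight. A DR4 match with at most 2 mismatches was held by 9 of the 21 (42.9%), against 17.3% of all TRBS. These lay at Sst and Cck (3 each), Cartpt (2) and Penk (1), so neighbouring TRBS are not independent counts. The matches were 6 to 358 bp from the summit. No test was made, since the distance was chosen with the data known. For 11 of the 21 the neuropeptide gene had the closest protein-coding TSS. The highest fold enrichment was upstream of Penk, at chr4:4199206-4199846, 60.6 kb from the TSS, where 57 fragments covered the summit and the enrichment was 21.6-fold. Its DR4 match, AAGACAaattAGGTCA at chr4:4199379-4199394 on the minus strand (half-sites in capitals), was 76 bp from the summit, and no other protein-coding TSS was closer. All 3 TRBS upstream of Sst, at 77.9, 92.3 and 132 kb, held a DR4 match, with fold enrichments of 5.54, 6.13 and 5.95, and were closer to the TSSs of Gm37419 or Bcl6.

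Cck had the most TRBS within 150 kb, 9, of which 7 lay between 69.0 and 138 kb downstream, and Cartpt had 5. Pdyn, Tac1 and Npy had 1 each, Pnoc 2, and Penk and Sst 3. The median over the 8 genes was 2.5, and over all protein-coding genes it was 4.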
